A study of Mus musculus with 35 samples.

Results

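The cytosolic ribosome is built from ribosomal RNA and a large family of ribosomal proteins, each usually encoded by 1 expressed gene, whose transcripts are among the most abundant and shortest in any cell. Many of these transcripts begin with a cytosine and a run of pyrimidines, the terminal oligopyrimidine (TOP) motif, which couples their translation to the mTORC1 growth pathway. Mutant huntingtin causes Huntington's disease, in which the projection neurons of the striatum, a forebrain nucleus, are affected early. The genes described here were those of a striatal RNAseq table whose symbol was *Rpl* or *Rps* followed by a digit, or *Rpsa*, *Rplp0*, *Rplp1* or *Rplp2*, leaving out the *Rps6k* kinases, with a mean of at least 5 CPM (counts scaled to a library of 1000000 by its total) over all mice. The rule used the names and the mean level, not any difference between groups. It matched 82 names and kept 80 members of the 22099 genes listed.

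The study asked whether lowering huntingtin outside the brain changes signs of disease within it. Striatal RNA was sequenced from 35 female mice, 1 library per mouse, aged 299 to 304 days on a C57BL6/J background. Wild-type mice (+/+) had received saline (n = 6), a control antisense oligonucleotide (control ASO, n = 5) or an oligonucleotide against huntingtin (*Htt* ASO, n = 6). Littermates of the B6.*Htt* Q111/+ line (Q111/+), which carry 1 knock-in *Htt* allele with an expanded CAG repeat in every cell, were treated in the same 3 ways (n = 6 in each arm). Dosing was weekly into the peritoneal cavity from 2 to 10 months of age, with 50 mg/kg of either ASO or 4 µL/g of saline, so that the treatment was peripheral and no group received ASO into the brain. The labels give the right hemistriatum as the tissue, except in 1 +/+ mouse on *Htt* ASO, for which they give the left.

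The members comprised 43 proteins of the large subunit, 30 of the small subunit, the 2 acidic stalk proteins *Rplp1* and *Rplp2*, and 3 paralogs that can replace or accompany a sister protein (*Rpl22l1*, *Rps27l*, *Rpl36al*). A further 2 were matched by name alone. *Rps19bp1* encodes a partner of Rps19 and *Rpl7l1* a relative of Rpl7 known from ribosome assembly, so neither is an established subunit. *Rplp0*, the base of the stalk, is listed as *Arbp* and was not reached by the rule, at a mean of 170.8 CPM. Just inside the limit stood *Rps27l* at 7.53 and *Rps19bp1* at 10.8 CPM, and just outside it *Rpl3l* at 0.481 and *Rpl39l* at 0.0575 CPM, both paralogs with a narrow range of tissues.

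Sequences around the annotated start of transcription are shown for 7 of the 10 members that differed most by genotype and for *Rps19bp1*, because the TOP motif lies there. The others are *Rpl3*, *Rpl30* and *Rpl35a*, for the last of which the table lists several starts. Each line is 5′ to 3′ from RefSeq on GRCm38.p6, with 20 bases before the start and 20 from it on, and capitals mark the longest unbroken run of C and T. The first 4 genes were higher in Q111/+ mice, at chr17:46782637-46782676 (minus strand), chr7:45718051-45718090 (plus), chr17:24720043-24720082 (plus) and chr2:26910787-26910826 (plus). The next 3 were lower, at chr1:39367831-39367870 (plus), chr7:109519175-109519214 (plus) and chr10:23787190-23787229 (minus). *Rps19bp1* is at chr15:80264287-80264326 (minus). In *Rpl18* and *Rps2* the start shown lies within the gene, whose annotated first base is at chr7:45715457 and chr17:24718116.
Rpl7l1: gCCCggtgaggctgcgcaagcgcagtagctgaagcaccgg
Rpl18: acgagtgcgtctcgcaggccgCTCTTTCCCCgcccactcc
Rps2: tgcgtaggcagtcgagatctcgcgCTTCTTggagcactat
Rpl7a: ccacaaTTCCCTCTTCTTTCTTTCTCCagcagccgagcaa
Rpl31: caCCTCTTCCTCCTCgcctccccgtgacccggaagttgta
Rpl27a: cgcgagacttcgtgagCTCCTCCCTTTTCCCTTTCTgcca
Rps12: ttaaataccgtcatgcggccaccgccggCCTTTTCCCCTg
Rps19bp1: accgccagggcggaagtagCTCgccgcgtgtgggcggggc
Runs of 10 or more pyrimidines stood in genes that were higher (*Rpl18*, *Rpl7a*) and in genes that were lower (*Rpl31*, *Rpl27a*, *Rps12*), whereas *Rps2* had a run of 6 and the 2 genes matched by name alone had runs of 3. Of the long runs, those of *Rpl7a* and *Rpl27a* spanned the annotated start. The run of *Rpl31* lay wholly before it, and those of *Rpl18* and *Rps12* began 1 and 8 bases past it. A long run in this window is therefore not in itself a TOP motif. Of the 61 members with a promoter sequence in the reference table, 30 (49.2%) had a run of at least 8 in this window, against 19.7% of 11170 tested genes and 16% of all 32851 promoters of the table. For genes with several starts the longest run was counted. The median run was 7 in members and 5 in tested genes. A run is a description of the annotated window, and the start used in striatum was not measured.

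Levels spanned a wide range even among genes whose products meet in 1 particle. Compared per kilobase of annotated transcript, the mean level over 35 mice, on library totals, was highest in *Rplp1* (531.5 CPM per kb), *Rpl41* (492.3), which encodes the smallest ribosomal protein, and *Rps29* (485.2). It was lowest in *Rps19bp1* (12.8 CPM per kb), *Rps27l* (13.1) and *Rpl7l1* (14.6). Below the bulk of true subunits stood *Rps15a* (24.7 CPM per kb), *Rps20* (30.5) and *Rpl22* (36.7). The annotated transcript of *Rps15a* is 5179 nt long for 390 coding nt and that of *Rps20* is 3706 nt for 357 coding nt, so their per-kilobase levels depend on which transcript the annotation represents. Between sister genes, *Rps27* stood at 415.5 CPM per kb against 13.1 in *Rps27l*, while *Rpl22l1* stood at 107.1 against 36.7 in *Rpl22*.

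**Figure D1:**
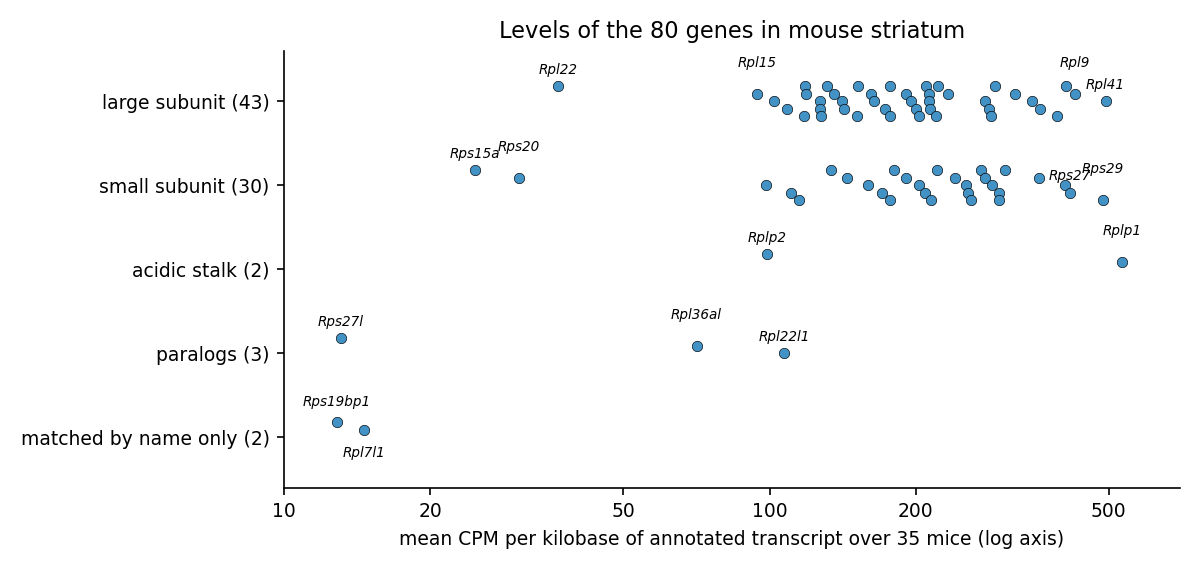
Mean level of each of the 80 genes over 35 mice, in CPM per kilobase of annotated transcript on a log axis, with 1 point per gene and 1 row per class. Most subunit genes lie between those for *Rpl15* and *Rplp1*, and the genes matched by name alone lie at the low end with *Rps27l*.

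As a class, members took 1.28 to 1.47% of all counts in a mouse (median 1.37%), with medians of 1.35% in +/+ and 1.37% in Q111/+ mice. Each varied little between mice of a group. The residual SD on the log2 scale had a median of 0.0589 over members (0.0364 to 0.110), against 0.119 over all tested genes, 0.0763 over mitochondrial ribosomal proteins, 0.0540 over proteasome subunits and 0.0643 over oxidative phosphorylation subunits. Spread on this scale also depends on the level, and the median level was 159 CPM in members against 15.3 CPM over all tested genes.

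The small deviations that remained were shared. After the group means were removed, 95.3% of the 3160 pairs of members had a positive correlation across mice (median r = 0.626), and the first principal component held 59.6% of the members' variance. Over 35 mice, the correlation of a member with the mean of the other members had a median of 0.813. *Rps27l* (r = −0.189), *Rpl7l1* (0.00885) and *Rpl22l1* (0.137) followed that mean least, and *Rps19bp1* had r = 0.236. The genes that followed that mean least were thus 2 paralogs and the 2 genes matched by name alone. Their levels were low, at 7.53 CPM in *Rps27l*, 10.8 in *Rps19bp1*, 38.0 in *Rpl7l1* and 59.1 in *Rpl22l1*, against a median of 159 CPM in members. *Rpl36al*, at 37.2 CPM, had r = 0.762. The part of low counts in these values was not tested. All the correlations above share the mice, their depth and the members' short length, and are given as a description.

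Total counts per mouse ranged from 32200158 to 38641924. The targeted transcript, listed as *Hdh*, did not pass the test between *Htt* ASO and control ASO (log2 difference −0.077, standard error (SE) 0.068, adjusted p = 0.967), and was lower in Q111/+ mice (−0.23, SE 0.055, adjusted p = 0.001). The tissue label was checked against markers. Of 13 measured projection neuron markers, 12 were called by genotype and 11 of these were lower in Q111/+ mice, with a summed level of 10473 to 12490 CPM in +/+ and 6880 to 8249 CPM in Q111/+ mice. Of 12 microglial markers 8 were lower, and of 9 endothelial markers 8 were lower. Of 10 astrocyte markers 4 were lower and 1 higher, and of 9 oligodendrocyte markers 4 were lower. Of 7 pan-neuronal markers 3 were higher. Over all tested genes 18% were lower and 21.8% higher. The part of these shifts in the differences below was not tested, and in bulk tissue fewer cells of a type and less RNA per cell cannot be told apart. Choroid plexus markers summed to 1589 CPM in 1 +/+ control ASO mouse and to at most 148.5 CPM in the other mice. Cortical excitatory neuron markers summed to 6.62 to 72.3 CPM over all mice, with 0 of 5 called by genotype.

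Between genotypes, averaged over treatment, a minority of ribosomal protein genes changed, in both directions and by little. Limma after voom, with p-values adjusted over 17639 tested genes and a threshold of 0.05, called 17 of 80 members, 10 higher and 7 lower in Q111/+ mice. Over all tested genes it called 39.8%, with 21.8% higher and 18% lower, so the members' share of calls (21.25%) was below the background. The members' log2 differences ran from −0.143 to 0.096 with a median of −0.0021 (0.0037 over all tested genes), and 37 were above 0 (51.2% of all tested genes) and 43 below (48.8%). At an unadjusted p under 0.05 there were 20 members (47.5% of all). No member had ranges of CPM that did not overlap between genotypes, which 2.21% of tested genes had. Of the 43 large subunit genes, 12 were called (7 higher, 5 lower). Of the 30 small subunit genes, 4 were called (2 higher, 2 lower).

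The split between higher and lower calls depended on scaling and on a correction for transcript length. With library totals in place of TMM, 28 members were higher and 2 lower, over a background of 33.1% higher and 12.8% lower, and the median of all tested genes was then 0.043. With each mouse corrected for transcript length, 8 members were higher and 31 lower, over a background of 23.3% higher and 21% lower. The 10 genes with full values below kept their direction under these settings, and where one lost its call this is stated beside it.

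**Figure D2:**
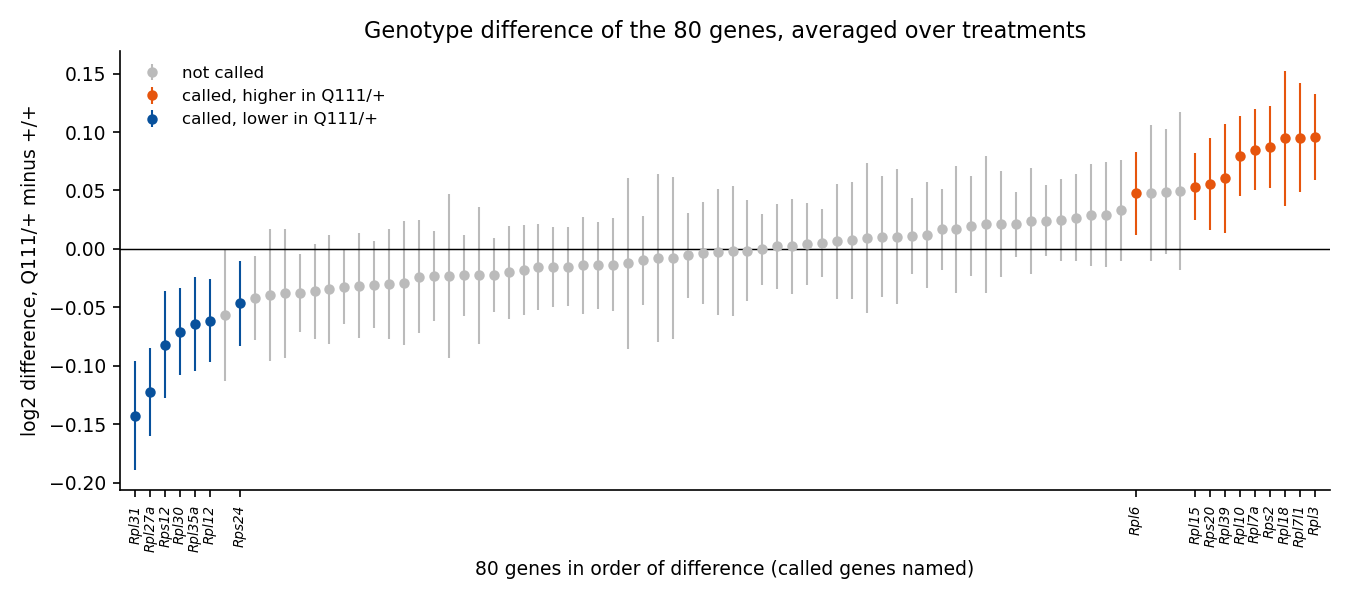
Log2 difference between Q111/+ and +/+ mice for each of the 80 genes, averaged over treatment, in order of size, with bars of the 95% confidence interval (18 and 17 mice) and coloured by call at an adjusted p under 0.05. Called genes are named on the horizontal axis. The differences run from −0.143 to 0.096, with 10 genes called higher and 7 lower.

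*Rpl31*, at the exit of the nascent chain from the large subunit, and *Rpl27a*, also of the large subunit, fell most. In +/+ mice *Rpl31* had a median of 179.8 CPM on saline (168 to 191), was 176, 188, 172, 184 and 170.4 CPM in the 5 mice on control ASO, and had a median of 179 CPM with *Htt* ASO (172 to 191). In Q111/+ mice the median was 166 CPM on saline (154 to 174), 162 CPM with control ASO (157 to 178) and 157 CPM with *Htt* ASO (145 to 169.8). The lowest +/+ value lay above 14 of 18 Q111/+ mice, and the genotypes overlapped in the others. The log2 difference was −0.143 (SE 0.023, adjusted p = 5.08e-06), and it was negative within all 5 lanes with mice of both genotypes. *Rpl27a* ranged from 187 to 214 CPM in +/+ mice (median 197) and from 169 to 196 CPM in Q111/+ mice (median 182). Of the 18 Q111/+ mice, 13 lay below the lowest +/+ mouse. The log2 difference was −0.122 (SE 0.019, adjusted p = 2.18e-06), again negative in all 5 lanes.

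The other large decreases were in *Rps12*, *Rpl30* and *Rpl35a*, and were smaller. *Rps12*, of the small subunit, ranged from 157 to 194 CPM in +/+ (median 173) and from 149 to 177 CPM in Q111/+ mice (median 163), a log2 difference of −0.082 (SE 0.022, adjusted p = 0.00362). *Rpl30* ranged from 154 to 169 CPM in +/+ (median 159) and from 146 to 163 CPM in Q111/+ mice (median 154), a difference of −0.071 (SE 0.018, adjusted p = 0.00221). *Rpl35a*, one of the genes mutated in Diamond-Blackfan anaemia, ranged from 140 to 158 CPM in +/+ (median 148) and from 133 to 152 CPM in Q111/+ mice (median 140), a difference of −0.064 (SE 0.020, adjusted p = 0.00867). In each of these 3 genes the ranges of the genotypes overlapped, and all 3 lost their call with library totals, at −0.043, −0.032 and −0.025. *Rpl35a* also lost it with lane as a covariate, at −0.049. *Rpl12* (−0.061, adjusted p = 0.00511) and *Rps24* (−0.046, adjusted p = 0.0375) completed the genes that fell. Both lost their call with library totals (−0.023 and −0.0075), and *Rps24* also with lane as a covariate (−0.036, adjusted p = 0.169). Without 1 mouse *Rps24* kept its call in 23 of 35 fits.

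*Rpl3*, a core protein of the peptidyl transferase region, rose by about as much as *Rpl7l1* and *Rpl18*, from which its difference was less than 1 SE away. *Rpl3* ranged from 485 to 568 CPM in +/+ mice (median 507) and from 517 to 587 CPM in Q111/+ mice (median 540). Of the 17 +/+ mice, 13 lay below the lowest Q111/+ mouse, while the highest +/+ mouse reached into the upper part of the Q111/+ range. The log2 difference was 0.096 (SE 0.018, adjusted p = 5.04e-05), positive in all 5 lanes. *Rps2*, of the small subunit at the messenger RNA entry, ranged from 246 to 292 CPM in +/+ (median 267) and from 272 to 302 CPM in Q111/+ mice (median 285), a difference of 0.087 (SE 0.017, adjusted p = 0.000103). *Rpl7a*, of the large subunit, ranged from 168 to 192 CPM in +/+ (median 177) and from 178 to 201 CPM in Q111/+ mice (median 187), a difference of 0.085 (SE 0.017, adjusted p = 0.000122). Both were higher in each of the 5 lanes, with overlapping ranges.

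*Rpl7l1* and *Rpl18* were the other 2 of the 5 largest increases. *Rpl7l1*, the relative of Rpl7, ranged from 33.4 to 39.7 CPM in +/+ (median 36.6) and from 36.6 to 42.0 CPM in Q111/+ mice (median 39.3), a difference of 0.095 (SE 0.023, adjusted p = 0.00106). *Rpl18* ranged from 70.2 to 86.3 CPM in +/+ (median 76.9) and from 72.1 to 88.8 CPM in Q111/+ mice (median 83.7), a difference of 0.095 (SE 0.028, adjusted p = 0.00762). *Rpl18* was higher in 4 of 5 lanes, and with lane as a covariate (0.051) or without the mice of lane 7 (0.070) it lost its call. *Rpl10* (0.079, adjusted p = 0.000235), *Rpl39* (0.060, 0.0334), *Rps20* (0.056, 0.0206), *Rpl15* (0.053, 0.00257) and *Rpl6* (0.048, 0.0290) completed the genes that rose. With lane as a covariate *Rps20* (adjusted p = 0.0869) and *Rpl6* (0.024, adjusted p = 0.282) lost their calls. When 1 mouse was left out in turn, *Rpl39* kept its call in 23 of 35 fits, *Rpl6* in 27 and *Rps20* in 33.

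**Figure D3:**
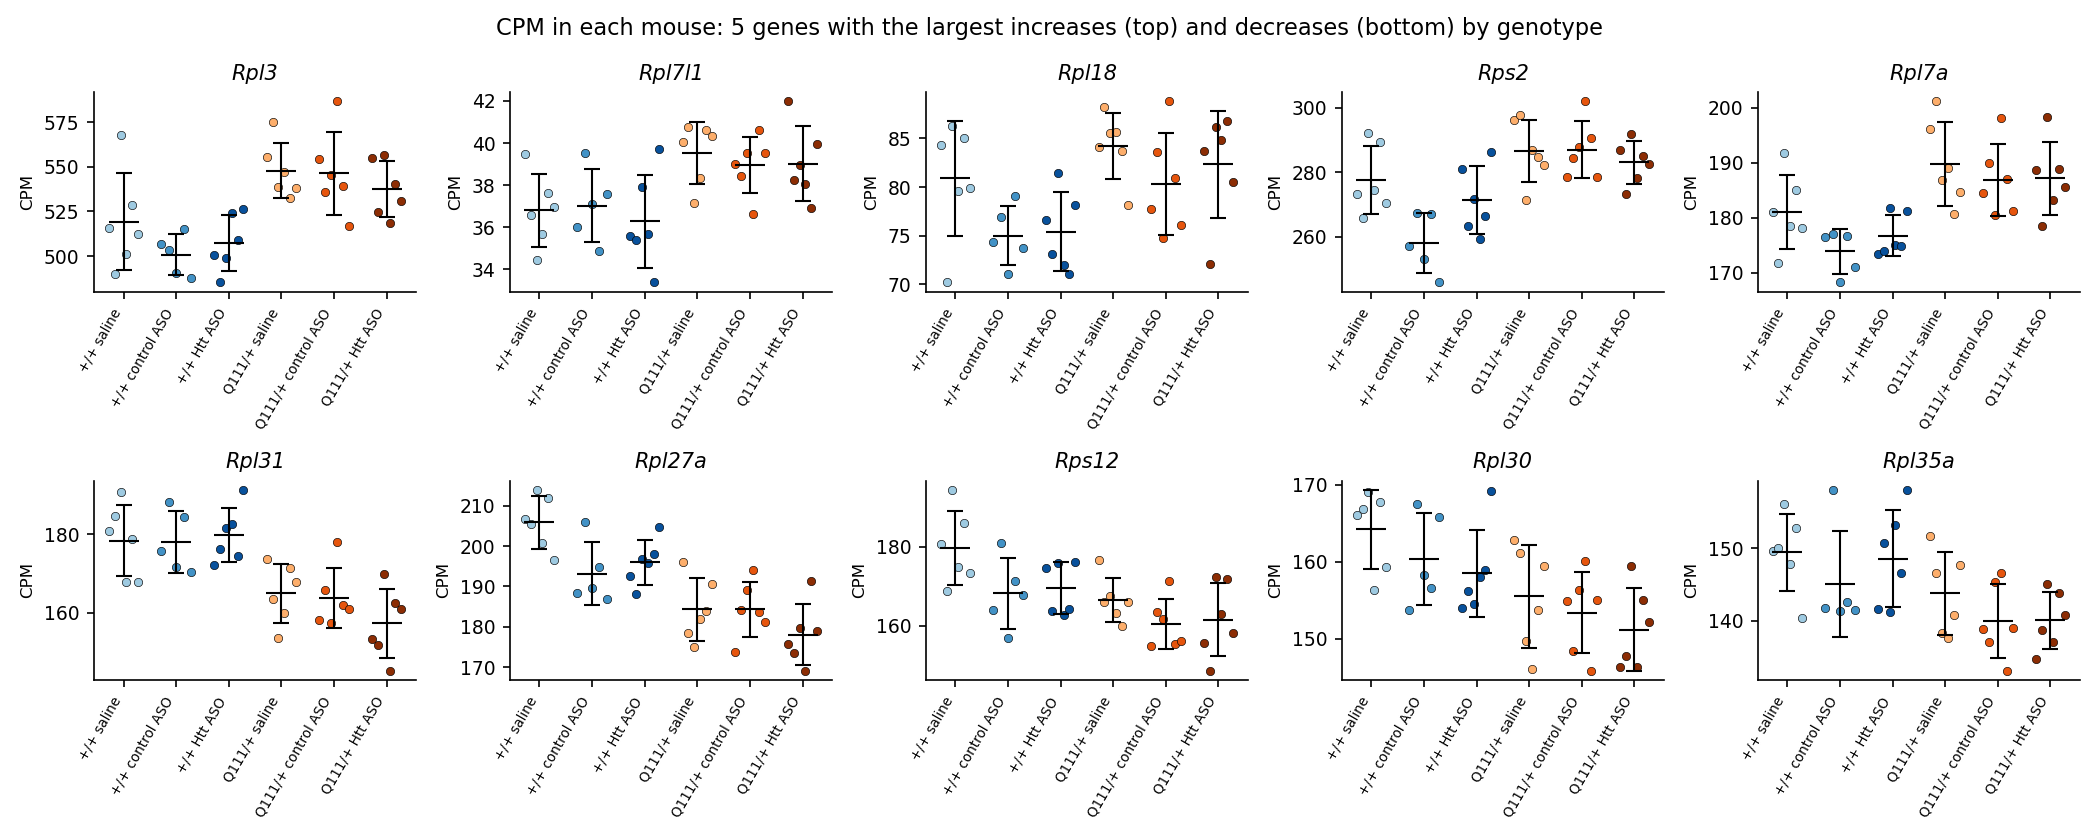
Level in CPM of each mouse for the 5 genes with the largest increases by genotype (top) and the 5 with the largest decreases (bottom), with 1 panel per gene, 1 point per mouse by group, and the mean and SD of each group as a bar. The vertical axes do not start at 0. *Rpl31* and *Rpl27a* lie lower and *Rpl3*, *Rps2* and *Rpl7a* higher in Q111/+ mice under each treatment, with overlap between genotypes.

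Neither the stalk proteins nor the sister pairs of *Rpl22*, *Rps27* and *Rpl36a* passed the test by genotype. Several of these genes changed sign with library totals, *Rplp1* to 0.031, *Rpl22* to 0.023, *Rps27* to 0.0088 and *Rps27l* to 0.016. *Rplp1* differed by −0.007 and *Rplp2* by 0.010 on the log2 scale, *Rpl22* by −0.016 and *Rpl22l1* by −0.056 (adjusted p = 0.106), *Rps27* by −0.030 and *Rps27l* by −0.023, and *Rpl36a* by 0.024 and *Rpl36al* by 0.029. *Rpl7* (0.021) was not called although *Rpl7l1* was. *Rps4x*, on the X chromosome, differed by 0.024. *Rpsa*, also known as the laminin receptor, differed by −0.042 (adjusted p = 0.0594), and lay close to the threshold. It was called with lane as a covariate (−0.064, adjusted p = 0.00534), with GC content corrected (−0.048, adjusted p = 0.0194) and with length corrected (−0.064, adjusted p = 0.000387), and was at −0.0030 with library totals. *Arbp* (0.027, adjusted p = 0.396) and *Fau* (−0.014), which encode ribosomal proteins under other names, were not called. *Gnb2l1*, which encodes the ribosome-bound scaffold Rack1, was higher (0.054, adjusted p = 0.00437).

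Many of these genes share sequence with near-identical copies elsewhere in the genome, and the estimated counts depend on how such reads were divided. Of the 80 members, 78 shared at least one 50-base word with another annotated gene and 39 shared more than 50% of theirs. These copies were mostly not in the table, since only 7 members shared a word with another listed gene. The share was 98.6% in *Rps27*, 92.1% in *Rpl10*, 85.6% in *Rpl3*, 83.2% in *Rps12*, 81.2% in *Rpl7a* and 79.0% in *Rps2*. It was 32.9% in *Rpl31*, 35.9% in *Rpl27a* and 9.0% in *Rpl7l1*. The values of *Rpl3*, *Rps2*, *Rpl7a*, *Rpl10* and *Rps12* are therefore uncertain beyond their SE, and the effect of copies on them was not tested. A smaller share does not mean undivided reads. The estimated counts of *Rpl31*, *Rpl27a* and *Rpl7l1* were whole numbers in 0% of mice, as in *Rps2* (0%), against 40% in *Rps12*. The same uncertainty therefore holds for *Rpl31*, *Rpl27a* and *Rpl7l1*.

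Within single treatments fewer members passed. On saline 5 were called (17.4% of all tested genes), with *Rpl10* higher and *Rpl12*, *Rpl27a*, *Rpl31* and *Rps12* lower in Q111/+ mice, over a background of 8.67% higher and 8.78% lower. On control ASO 4 were called (18.5% of all), with *Rpl3*, *Rpl7a* and *Rps2* higher (background 10.1%) and *Rpl31* lower (8.46%). On *Htt* ASO 7 were called (21.2% of all), with *Rpl10*, *Rpl3*, *Rpl7a* and *Rpl7l1* higher (background 10.9%) and *Rpl12*, *Rpl27a* and *Rpl31* lower (10.2%). *Rpl31* was thus called under each treatment. Of the 17 members called over all treatments, 16 had the same sign under each. The interactions, which test whether the genotype difference changed with treatment, called 0 members and 0 of all tested genes with limma, and edgeR and DESeq2 also called 0 members. At an unadjusted p under 0.05, limma gave 1 member for *Htt* ASO against control ASO (4.04% of all), 0 for *Htt* ASO against saline (5.52%) and 6 for control ASO against saline (6.63%).

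Neither ASO changed any member past the threshold. *Htt* ASO against control ASO, averaged over genotype, called 0 members with limma, edgeR and DESeq2 (limma called 0.935% of all tested genes), and 1 member had an unadjusted p under 0.05 (6.46% of all). The members' median log2 difference was 0.0045 (−0.0038 over all tested genes), with 46 above 0 (46.8% of all tested genes) and 34 below (53.2%). *Rpl12* had the smallest p, at a median of 152 CPM on control ASO (147 to 161), 157 CPM with *Htt* ASO (150.1 to 173) and 160.2 CPM on saline (152 to 180.1). Its difference between the ASOs was 0.048 (SE 0.022, adjusted p = 0.679). *Rps15a*, next in order, ranged from 120 to 139 CPM on control ASO (median 129) and from 120 to 131 CPM on *Htt* ASO (median 125), a difference of −0.037 (adjusted p = 0.833).

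Against saline, both ASO groups had slightly lower values in nearly all members, with none called. These comparisons share their saline mice, so that they are not independent of each other. Members also moved together across mice (median r = 0.626), so counts of members, here and within genotypes, are not counts of independent observations. For control ASO the median was −0.049 (−0.0018 over all tested genes), 79 of 80 members lay below 0 (51% of all tested genes) and 37 had an unadjusted p under 0.05, against 7.69% of all tested genes. Limma called 0 members and 0 of all tested genes. For *Htt* ASO the median was −0.044 (−0.0057 over all), 79 of 80 lay below 0 (54.2% of all) and 27 had an unadjusted p under 0.05, against 9.37% of all tested genes. Limma called 0 members and 1.47% of all tested genes. EdgeR and DESeq2 called 0 members in both.

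Within genotypes the values below an unadjusted p of 0.05 were mostly from +/+ mice, and limma again called 0 members in each. For control ASO against saline there were 35 such members in +/+ (11.8% of all tested genes) at a median of −0.071, and 1 in Q111/+ mice (2.9%) at a median of −0.032. For *Htt* ASO against saline there were 25 in +/+ (10.5% of all) at a median of −0.059, and 0 in Q111/+ mice (6.17%) at a median of −0.033. Over all tested genes limma called 0.726% for *Htt* ASO in +/+ and 0.556% in Q111/+ mice, and 0 for control ASO in either. The interactions given above, which test these genotype contrasts directly, called no member.

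Glial markers moved in the same direction for control ASO, with 0 called. Their median log2 difference from saline was −0.074 over 10 astrocyte markers, −0.057 over 9 oligodendrocyte markers and −0.070 over 12 microglial markers. The summed astrocyte level ranged from 1733 to 2008 CPM on saline and from 1637 to 2111 on control ASO, the oligodendrocyte level from 9904 to 12757 and from 9179 to 12044, and the microglial level from 618 to 702.2 and from 557 to 716. For *Htt* ASO the medians were −0.072, −0.046 and −0.035, again with 0 called, and the summed levels ranged from 1624 to 1961, from 9299 to 11837 and from 587 to 717.03 CPM. The direction was not limited to glia. Pan-neuronal markers had medians of −0.034 for control ASO and −0.032 for *Htt* ASO, whereas projection neuron markers had 0.0041 and 0.038, with 0 called in either list. Of 9 endothelial markers, 3 were higher and 1 lower on *Htt* ASO than on saline (median 0.147), with a summed level of 337 to 419 CPM on saline and 349 to 444 CPM on *Htt* ASO. The ranges overlapped in each, and the part of these markers in the shift was not tested. For control ASO against saline, mitochondrial ribosomal proteins had a median of −0.038, oxidative phosphorylation subunits −0.031 and proteasome subunits −0.018. For *Htt* ASO against saline these medians were −0.032, −0.021 and −0.0084.

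Single genes show how small these shifts were. *Rpsa* had a median of 415 CPM on saline (395 to 447), 391 CPM with control ASO (379 to 423) and 405 CPM with *Htt* ASO (374 to 418). Its difference was −0.081 for control ASO (SE 0.022, adjusted p = 0.588) and −0.062 for *Htt* ASO (SE 0.021, adjusted p = 0.218). *Rpl36* ranged from 43.2 to 56.6 CPM on saline (median 46.9) and from 39.2 to 47.3 on control ASO (median 44.5), a difference of −0.165 (SE 0.044, adjusted p = 0.588). *Rpl34* had a median of 96.3 CPM on saline (92.7 to 105) and 92.8 CPM with *Htt* ASO (87.2 to 98.3), a difference of −0.063 (adjusted p = 0.261). In all 3 the treatments overlapped. Within lanes, the members' median for control ASO against saline ran from −0.100 to 0.0049 and was negative in 4 of 5 lanes, and that for *Htt* ASO ran from −0.069 to 0.0071, also negative in 4 of 5. Each of these lanes held only 1 to 3 mice per treatment. Lane 5 held 3 mice on each ASO and no saline mouse, so lane and treatment were partly confounded.

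GC content and transcript length moved with these differences across all genes. Control ASO against saline had a Spearman rho over 14155 genes of −0.473 with GC content and 0.326 with length, and over members of −0.696 and 0.356. For *Htt* ASO against saline rho was −0.255 and 0.174 over all genes, and −0.541 and 0.314 over members. For genotype it was 0.024 and −0.123 over all genes, and 0.037 and 0.080 over members. The genotype rho with length thus differed in sign between members and all genes. The genotype rho with GC content differed in sign between treatments. Over all genes this rho was −0.213 in saline mice, against 0.131 with control ASO and 0.123 with *Htt* ASO. Over members the values were −0.341, 0.320 and 0.131 in the same order. Genes are not independent replicates, so these are descriptions. Members were near the genome in GC content (median 50.7%, 40.6 to 62.4%) but far shorter than other genes (median 814.5 nt against 3132 nt), and made up 8.26% of the 678 tested genes of at most 1000 nt.

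Correcting each mouse for these trends removed most of the shared movement when length was the property and little of it when GC content was. The mean deviation of members in a mouse, in log2 units, ran from −0.0788 to 0.125 as measured, with an SD within groups of 0.0468. The SD was 0.0414 after correction for GC content, 0.0186 after correction for length and 0.0202 after both. The shift against saline shrank in the same way. For control ASO the median was −0.041 with GC content corrected and −0.0087 with length corrected, and the members with an unadjusted p under 0.05 went from 37 to 30 and 10. For *Htt* ASO the median was −0.039 with GC content corrected and −0.019 with length corrected, with 27 and 13 such members.

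**Figure D4:**
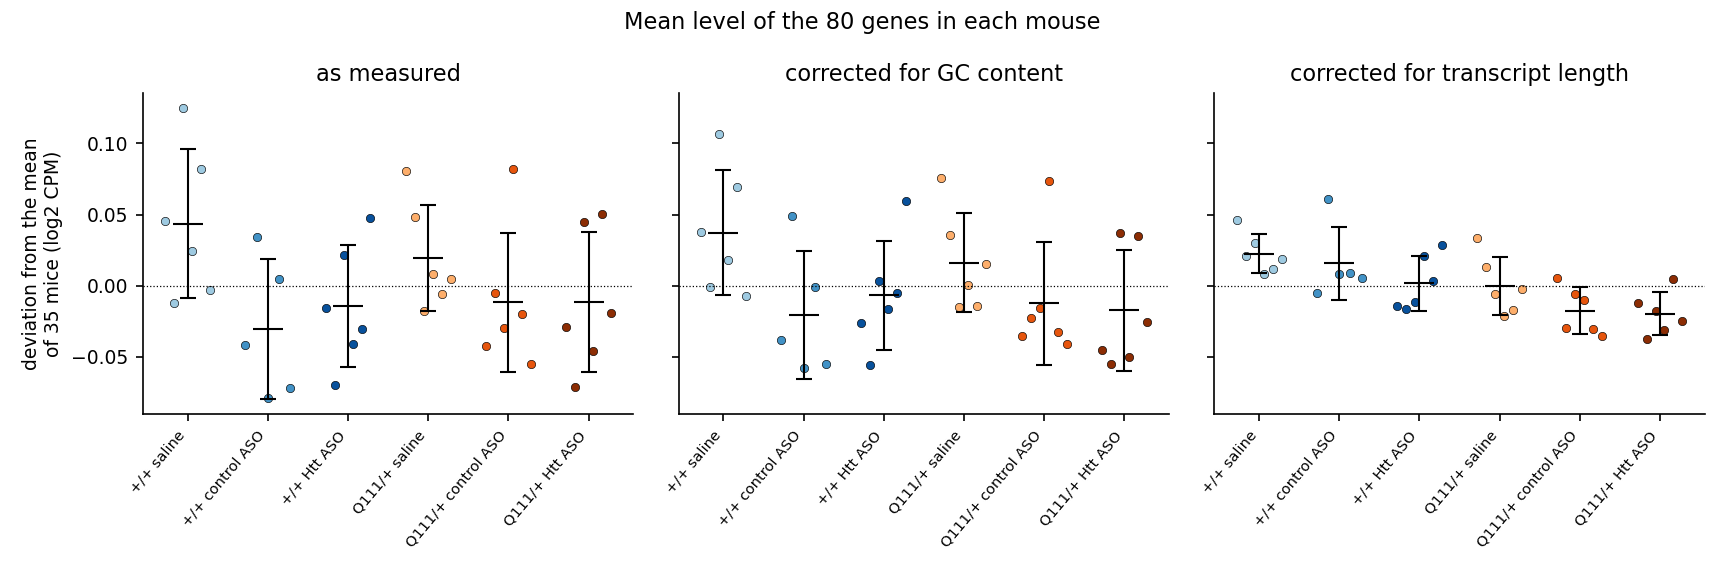
Mean log2 deviation of the 80 genes in each mouse from their mean over 35 mice, by group, in 3 panels: as measured, corrected for GC content and corrected for transcript length. Points are mice and bars the mean and SD of a group; the spread within groups falls from 0.0468 as measured to 0.0186 with length corrected.

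The genotype difference went the other way. With length corrected, members stood lower in Q111/+ mice, at a median of −0.027 with 39 called (44.4% of all), and all 10 genes with the largest changes named above were called in the same direction as before. *Rpl31* was then at −0.170 (adjusted p = 1.9e-09) and *Rpl27a* at −0.149 (adjusted p = 1.33e-09), whereas *Rpl3* was at 0.071 and *Rps2* at 0.060. *Rpl39* was no longer called (0.034, adjusted p = 0.253). The mean deviation with length corrected was 0.0226, 0.0157 and 0.00167 in +/+ mice on saline, control ASO and *Htt* ASO, and 0.0000430, −0.0176 and −0.0197 in Q111/+ mice on the same treatments. Correction for GC content alone gave 18 calls (47% of all), 9 in each direction (25% higher and 22% lower over all genes). Of the 17 members called as measured, 15 were also called with length corrected. What length stands for in these libraries was not tested, and a trend fitted over short genes includes the members themselves.

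**Figure D5:**
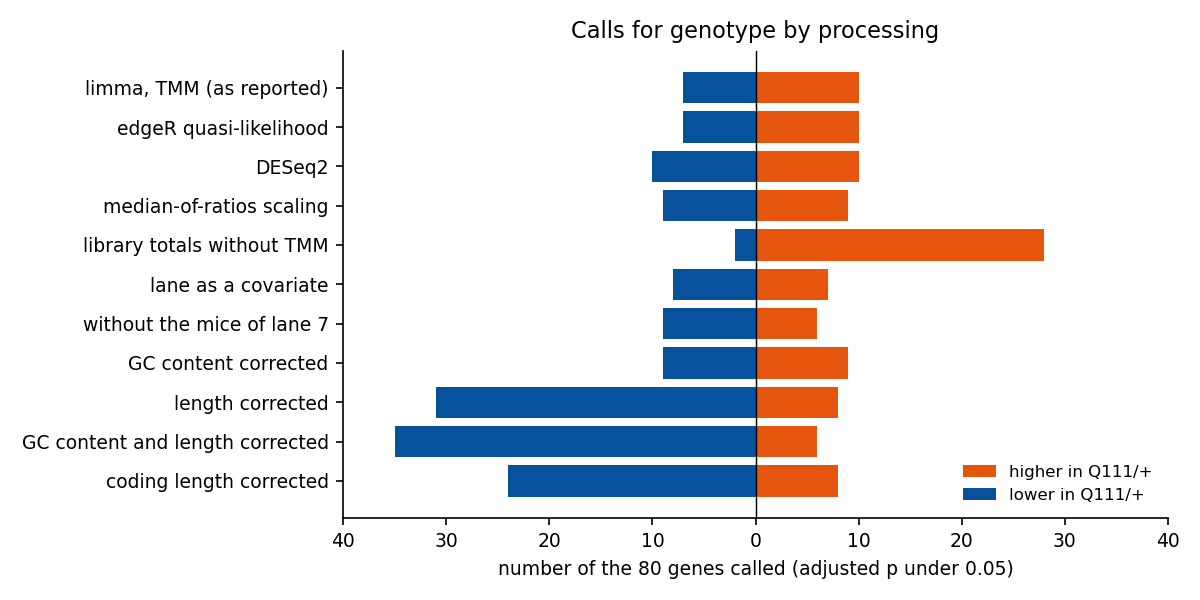
Number of the 80 genes called by genotype under each way of processing, higher in Q111/+ mice to the right and lower to the left. The split is 10 and 7 as reported, 28 and 2 with library totals, and 8 and 31 with length corrected.

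Other components of protein synthesis and turnover gave medians above 0 by genotype, beside a background of 21.8% higher and 18% lower over all tested genes. Of 75 mitochondrial ribosomal proteins, 23 were higher and 1 lower in Q111/+ mice, with a median of 0.040. Of 38 proteasome subunits, 21 were higher and 0 lower (median 0.051), and of 81 oxidative phosphorylation subunits 27 were higher and 5 lower (median 0.043). With length corrected the medians were 0.020, 0.027 and 0.017, beside −0.027 in the cytosolic ribosomal proteins. These lists are set side by side without a test between them. Of 52 genes listed as initiation factors 18 were higher and 2 lower, of 12 elongation factors 4 were higher and 0 lower, and of 40 ribosome assembly factors 15 were higher and 4 lower. The 2 lower genes of the initiation list include *Eif2c4*, an Argonaute gene. In all, 32% of mitochondrial ribosomal proteins, 55.3% of proteasome subunits, 39.5% of oxidative phosphorylation subunits, 38.5% of initiation factors, 33.3% of elongation factors and 47.5% of assembly factors were called, against 39.8% of all tested genes.

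Other genes listed as carrying the TOP motif, among them *Fau*, which encodes a ribosomal protein, also went both ways. Of these 18, 6 were higher and 2 lower (44.4% called, against 39.8% of all tested genes). *Eef1a1*, the elongation factor that brings transfer RNA to the ribosome, was 2428 ± 48.0 CPM in +/+ (SD, n = 17) and 2650 ± 73.5 CPM in Q111/+ mice (SD, n = 18), a log2 difference of 0.127 (adjusted p = 1.41e-09). *Eef2*, the translocation factor, was higher by 0.075 (adjusted p = 0.00923). *Tpt1*, the translationally controlled tumour protein, was lower by 0.106 on the log2 scale (difference −0.106, adjusted p = 7.56e-06). Of 17 mTORC1 components and TOP regulators 3 were higher and 4 lower, a share of calls (41.2%) near that of all genes. Among them *Larp1*, which binds TOP transcripts, was higher (0.080), and *Ddit4l*, an inhibitor of mTORC1, was lower (−1.70).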

How the data were processed

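The authors made TruSeq Stranded mRNA libraries and aligned read pairs to mouse transcripts (MGSCv37, mm9) with Bowtie 0.12.9. They deposited expected counts per gene and mouse from RSEM 1.1.18, without scaling. RSEM divides a read that matches several transcripts among them, and 33.9% of the members' values were exact whole numbers (no tolerance), against 39.7% for other genes above 5 CPM. Groups came from the sample labels, in which ASO1 was taken as *Htt* ASO and the codes L3 to L8 were read as lanes. Lane 7 held only Q111/+ mice, and lane 5 held no saline mouse.

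Of 22099 genes, 17639 passed filterByExpr (minimum count 10, minimum total 15). Voom and limma 3.58.1 were applied in R 4.3.3 with TMM scaling (edgeR 4.0.16) and a mean for each of 6 groups (29 residual degrees of freedom), with Benjamini-Hochberg adjustment over all genes tested. CPM by mouse and group use TMM-scaled totals, while the 5 CPM limit, shares of counts and levels per kilobase use library totals. In edgeR and DESeq2 1.42.0 the expected counts were rounded. The code was tested on simulated data. Counts differed beyond sampling noise in all 85 pairs of mice of a group (chi-square over its degrees of freedom 3.50 to 15.9). Where lanes could be compared, 5 held both genotypes. GC content and length came from GRCm38 annotation, matched on the symbol, for 14155 tested genes (80.2%) and all 80 members; corrections subtracted a smooth trend per mouse. Positions are on GRCm38 and the counts on MGSCv37.

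Members and lists were chosen with earlier results of these data known. Named were stalk proteins, *Rpsa* and sister genes, the 5 largest called changes each way by genotype with 1 sign under all treatments, the 2 smallest adjusted p of each treatment comparison, the 3 highest and lowest levels, genes at the 5 CPM limit, the 3 least correlated genes, and the top call each way of other lists; other genes were named after their values were seen. Alternatives were other tools, scalings and filters, lane terms, quality weights, corrections, a block for the letters of mouse names, and leaving out each mouse; correction for coding length and the uncorrected fit on the same 14155 genes were added after seeing the data. Nothing in the sources says more of replicates than 1 library per mouse.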

Additional observations from a re-analysis of the deposited data

Results flagged for a closer look

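Single mice stood apart from their group in 7 of the 186 group values examined, by Dixon's 95% limit, which chance passes in about 1 in 20 groups. In Q111/+ mice on control ASO, replicate 4 (lane 7) had the highest share of counts in the members, 1.47% against 1.33 to 1.37% in the other 5. The same mouse had the highest *Rps27* (153.4 CPM against 136.7 to 140.3) and *Rpl34* (97.97 CPM against 90.4 to 92.3). In +/+ mice on control ASO, replicate 2 (lane 5) was highest in *Rps4x* (272.4 CPM against 256.4 to 260.7) and *Rpl35a* (158.2 CPM against 141.3 to 142.6). *Rpl30* was 169.3 CPM in replicate 6 of +/+ mice on *Htt* ASO (lane 5), against 153.9 to 158.9. That mouse was the only one sampled from the left hemistriatum. *Rplp2* was 108.6 CPM in replicate 5 of Q111/+ mice on *Htt* ASO (lane 3), against 92.0 to 97.8. *Rpl30* and *Rpl35a* were still called lower in Q111/+ mice without any single mouse.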

How the results depend on the processing

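The count of members called by genotype (17) was 30 with library totals, 39 with length, 41 with GC content and length and 32 with coding length corrected. Those called higher (10) were 28 with library totals, 6 without lane 7 and 6 with GC content and length corrected, and those called lower (7) were 2, 31, 35 and 24 with library totals, length, GC content and length, and coding length. On saline (5 called) the count was 10 with library totals, 3 with no filter, 2 with lane as a covariate, 2 without lane 7, 1 with only the groups compared, 8 with GC content, 10 with length and 15 with both corrected. On control ASO (4 called) it was 7 with library totals, 16 with length, 16 with both and 12 with coding length. On *Htt* ASO (7 called) it was 23 with library totals, 3 with lane, 4 without lane 7, 3 with only the groups compared, 13 with length and 14 with both. None of the 17 called members was called in the opposite direction. Uncalled members did change sign: with library totals *Rplp1* was at 0.031, *Rpl22* at 0.023 and *Rps27* at 0.0088, and the members' median was 0.037. Without 1 mouse, the genotype count ran from 15 to 19 (7 to 10 higher, 6 to 9 lower), with a median of −0.010 to 0.0041. On saline it ran from 1 to 5, on control ASO from 3 to 5 and on *Htt* ASO from 2 to 8. The saline count was 1 without +/+ saline replicate 5, 2 without Q111/+ saline replicate 2, and 3 without Q111/+ saline replicates 3, 4, 5 or 6, Q111/+ control ASO replicate 3 or Q111/+ *Htt* ASO replicate 6. The *Htt* ASO count was 2 without +/+ *Htt* ASO replicate 5, 4 without Q111/+ *Htt* ASO replicate 5, and 3 without Q111/+ *Htt* ASO replicates 1 or 3, +/+ *Htt* ASO replicates 2 or 4 or +/+ saline replicate 5. Treatment medians ran from −0.0016 to 0.014 (*Htt* against control ASO), −0.051 to −0.035 (*Htt* ASO against saline) and −0.059 to −0.041 (control ASO against saline), with 0 called. No paired analysis was possible because the labels carry no replicate numbers; a block for the first letters of mouse names gave 17 calls (correlation 0.0909). The causes of these changes were not tested.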

Other observations

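Beyond the lists above, the gene called with the smallest adjusted p in each direction shows how far genes of other lists differed by genotype. *Rrs1*, a ribosome assembly factor, was higher in Q111/+ mice (log2 difference 0.390) and *Ubtf*, a transcription factor of ribosomal RNA genes, was lower (−0.247). *Npm1*, a nucleolar chaperone named after its value was seen, was higher (0.064, adjusted p = 0.00667). *Mrpl39* was higher (0.200) and *Mrps33* lower (−0.087) among mitochondrial ribosomal proteins. *Eif4a2*, a helicase of translation initiation, was higher (0.152) and the Argonaute gene *Eif2c4* lower (−0.639). *Psmc4*, of the proteasome, was higher (0.091), and among oxidative phosphorylation subunits *Atp5g1* was higher (0.209) and *Ndufs3* lower (−0.121).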
